A study of Mus musculus with 10 samples.

Results

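Of the 41330 ends of 20665 autosomal protein-coding mouse genes, 359 ends in 341 genes carried a nucleophosmin (NPM1) peak in macrophages of infarcted hearts and in interleukin-4-treated cultured macrophages, without a peak of histone H3 trimethylated at lysine 4 (H3K4me3) nearby. These member ends were chosen by measured values, namely the peak lists of 4 CUT&Tag libraries. An end was taken where both NPM1 lists had a peak within 1 kb and neither the knockout nor the WT H3K4me3 list had one within 2 kb. NPM1 peaks in the 2 other NPM1 libraries, the opposite end of the gene, strand, neighbouring genes and sequence played no part in the choice.

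The 6 libraries used here, each the only one of its group, came from mouse macrophages. The NPM1 antibody was used on cardiac macrophages of wild-type (WT) mice, taken at day 3 after myocardial infarction or after a sham operation. The same antibody was used on WT macrophages grown from bone marrow for 7 days with M-CSF at 50 ng/ml (BMDM), either given interleukin-4 (IL-4) at 20 ng/ml for 12 hours or left untreated. H3K4me3 was mapped in Npm1-knockout and in WT cardiac macrophages at day 3 after infarction. The knockout is conditional, its driver is not stated, and neither is the number of animals behind a library. H3K4me3 in BMDM was not analysed here, so at every member end the IL-4 NPM1 peak is set against H3K4me3 of cardiac macrophages. A single library per group allows no test between groups, so values are described without p-values.

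NPM1 is a histone chaperone of the nucleolus that also shuttles through the nucleoplasm and binds chromatin. H3K4me3 marks the nucleosomes around active and poised promoters, so it usually stands at the start of a gene and seldom at its far end. CUT&Tag uses an antibody to tether a transposase that cuts and tags the DNA beside the bound protein, and it can also tag open chromatin without the protein.

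Promoter sequences show what kind of DNA lies at the member gene starts. The RefSeq promoter table (GRCm38.p6, the assembly that mm10 names) runs from 250 bases before to 50 bases after a start site, and 85 of the 97 member ends at a gene start had such a site within 1 kb. Members are put in order here by the lower of their infarct and IL-4 −log10 q, a working order that mixes values of different lists. The 7 promoters printed here come first in that order among the member starts whose promoter lies partly or wholly under both NPM1 peaks, predicted genes left out. They are those of the sperm protein gene Prm1 (chr16:10796774-10797073, minus strand), the natural killer receptor gene Klrb1c (chr6:128788592-128788891, minus strand), the cell adhesion gene Amigo3 (chr9:108052909-108053208, plus strand), the MHC class II gene H2-Eb1 (chr17:34305617-34305916, plus strand), the hair keratin-associated protein gene Krtap21-1 (chr16:89403725-89404024, minus strand), the sodium-glucose cotransporter family gene Slc5a4a (chr10:76147201-76147500, plus strand) and the organic anion transporter gene Slco2b1 (chr7:99711291-99711590, minus strand). Each reads 5′ to 3′ towards the gene, and capitals mark matches to 6 motifs searched on both strands. The motifs were the GC box GGGCGG, the CCAAT box CCAAT, an AP-1 site TGANTCA, a PU.1 site GAGGAAGT, a C/EBP site TTGCNNAA and the CTCF core, which reads CC, 3 of any base, AG, 2 of any base, GGC.
Prm1: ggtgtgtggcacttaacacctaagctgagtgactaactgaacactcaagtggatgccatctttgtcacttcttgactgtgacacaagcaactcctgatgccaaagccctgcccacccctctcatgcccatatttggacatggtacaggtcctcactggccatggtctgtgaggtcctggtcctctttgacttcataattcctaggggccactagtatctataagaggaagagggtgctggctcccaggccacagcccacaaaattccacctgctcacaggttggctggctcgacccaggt
Klrb1c: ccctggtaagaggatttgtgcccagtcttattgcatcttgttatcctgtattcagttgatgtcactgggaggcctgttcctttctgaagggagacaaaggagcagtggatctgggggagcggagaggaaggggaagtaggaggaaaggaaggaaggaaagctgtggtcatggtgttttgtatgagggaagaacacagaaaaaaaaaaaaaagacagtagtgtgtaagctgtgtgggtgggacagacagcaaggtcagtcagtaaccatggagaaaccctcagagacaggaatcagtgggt
Amigo3: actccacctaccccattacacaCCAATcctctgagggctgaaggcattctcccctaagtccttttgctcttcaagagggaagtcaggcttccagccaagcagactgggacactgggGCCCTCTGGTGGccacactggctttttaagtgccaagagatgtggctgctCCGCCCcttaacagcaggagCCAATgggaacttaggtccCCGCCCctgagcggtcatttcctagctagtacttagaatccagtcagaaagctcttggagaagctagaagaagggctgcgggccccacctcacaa
H2-Eb1: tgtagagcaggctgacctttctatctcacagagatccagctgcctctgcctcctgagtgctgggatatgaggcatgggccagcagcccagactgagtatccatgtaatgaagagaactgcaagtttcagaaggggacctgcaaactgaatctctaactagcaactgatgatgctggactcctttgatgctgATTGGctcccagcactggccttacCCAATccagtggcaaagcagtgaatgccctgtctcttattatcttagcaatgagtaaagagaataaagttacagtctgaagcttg
Krtap21-1: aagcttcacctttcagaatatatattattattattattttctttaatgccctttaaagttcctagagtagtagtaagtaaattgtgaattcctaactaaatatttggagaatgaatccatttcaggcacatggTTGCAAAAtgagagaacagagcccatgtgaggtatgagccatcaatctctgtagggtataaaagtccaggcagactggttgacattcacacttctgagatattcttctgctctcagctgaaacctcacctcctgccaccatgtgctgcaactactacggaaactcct
Slc5a4a: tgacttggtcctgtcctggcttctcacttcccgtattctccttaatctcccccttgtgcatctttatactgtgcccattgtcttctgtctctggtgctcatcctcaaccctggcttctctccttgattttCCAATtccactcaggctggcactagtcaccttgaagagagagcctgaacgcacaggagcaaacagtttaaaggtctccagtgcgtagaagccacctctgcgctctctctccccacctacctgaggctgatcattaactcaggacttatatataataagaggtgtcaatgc
Slco2b1: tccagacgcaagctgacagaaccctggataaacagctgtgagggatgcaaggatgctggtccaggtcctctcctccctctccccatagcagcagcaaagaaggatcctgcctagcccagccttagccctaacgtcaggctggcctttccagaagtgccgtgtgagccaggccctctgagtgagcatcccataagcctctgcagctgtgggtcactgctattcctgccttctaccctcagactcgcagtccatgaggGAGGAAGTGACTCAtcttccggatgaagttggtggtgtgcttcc

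Both NPM1 peaks covered all 300 bases of the Klrb1c and Amigo3 promoters, 193 bases at Slc5a4a, 182 at Slco2b1, 87 at H2-Eb1, 85 at Krtap21-1 and 64 at Prm1. The Amigo3 promoter held 5 matches, to the CTCF core, to the GC box at 2 places and to the CCAAT box at 2 places. H2-Eb1 held 2 CCAAT matches, Slc5a4a 1 CCAAT match and Krtap21-1 1 C/EBP match. Slco2b1 held a PU.1 match that runs into an AP-1 match and shares a T with it. None of the 6 motifs matched in the Prm1 and Klrb1c windows. These promoters hold few CpG dinucleotides, 1 at Prm1, 1 at Klrb1c, 4 at Amigo3, 0 at H2-Eb1, 1 at Krtap21-1, 4 at Slc5a4a and 5 at Slco2b1.

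Few CpGs were the rule at member starts. Most of the 85 member promoters had no base under both NPM1 peaks, so the values below describe gene starts and not the DNA under the peaks. The median was 3 CpGs in 300 bases over the 85 member promoters, against 23 over 6467 promoters with both NPM1 peaks and H3K4me3. It was also 3 over 4538 promoters lacking H3K4me3 and lacking the pair of NPM1 peaks. A promoter with 10 or more CpGs was found at 13 member starts (15.3%), against 88.4% of the NPM1 starts with H3K4me3 and 13.9% of the H3K4me3-free starts without both NPM1 peaks. By CpG number the member starts therefore resembled other H3K4me3-free starts. Their GC content was intermediate, with a median of 53.3% (quartiles 47.3% and 57.0%), against 62.0% and 45.7% in the other sets. The GC box matched in 17.6% of member promoters, against 69.8% of NPM1 starts with H3K4me3 and 13.6% of H3K4me3-free starts, and in 47.8% of all 14811 promoters. The CCAAT box matched in 35.3% of member promoters, against 40.9% in either other set and 39.4% of all. The CTCF core matched in 6 member promoters (7.06%), against 13.5%, 4.14% and 10.1% in the same sets, and the C/EBP site in 6 (7.06%), against 7.65%, 14.9% and 10.3%. AP-1 matched in 4 member promoters (4.71%), against 4.24% and 11.9%, and PU.1 in 3 (3.53%), against 3.23% and 3.79%. A match describes the letters only.

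The lists differ in depth, and so does what an absent peak means. Total reads were not given, but the genome-wide background at the summits, in reads per position, was 3.03 in the infarct and 1.29 in the sham library, 4.18 with IL-4 and 1.31 in untreated cells. It was 2.49 for knockout and 2.92 for WT H3K4me3. The absence of a peak means only that none was called at that depth. Fold enrichment and −log10 q are values the authors gave each peak, and they order peaks only inside 1 list. All 12 macrophage markers had H3K4me3 at a gene end in both cardiac libraries. Markers of other cells were found too, for knockout and WT, 1 and 1 of 10 for cardiomyocytes, 5 and 1 of 8 for fibroblasts, 6 and 5 of 8 for endothelium, 3 and 2 of 6 for neutrophils, 3 and 5 of 6 for T and NK cells and 2 and 2 of 5 for B cells. The part of such cells in the member list was not tested.

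Of all gene ends, 12764 (30.9%) had an infarct NPM1 peak, 12888 (31.2%) an IL-4 peak and 10192 both. H3K4me3 lay within 2 kb of 9833 of those 10192 ends, which leaves the 359 members, or 3.52%. Among the 21077 ends without H3K4me3, 1251 had an infarct peak, and 28.7% of these also had an IL-4 peak. Of the 1416 with an IL-4 peak, 25.4% also had an infarct peak. Member genes make up 1.65% of all genes, and 18 of them were members at both ends. The 359 ends rest on 319 distinct infarct peaks and 320 distinct IL-4 peaks, since neighbouring genes and short genes share peaks.

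The limits of the rule were met closely on either side. Lsp1, a leukocyte actin-binding protein gene, came in with an NPM1 peak 1000 bp away, and Ccdc65 and the cytokine gene Il4 with one at 999 bp. Bcdin3d and Jmjd7 stayed out at 1003 bp and Myocos at 1008 bp. For H3K4me3, Sectm1a came in at 2005 bp, Unc5a at 2010 bp and Ubp1 at 2015 bp, while Hk3 stayed out at 1977 bp, Nuak2 at 1943 bp and Slc51a at 1942 bp. The median distance from a member end to the nearest H3K4me3 peak of either list was 4970 bp, with quartiles of 3073 and 9283 bp. It was under 3 kb at 87 ends and over 10 kb at 75. The farthest was the vomeronasal receptor gene Vmn2r46, at 121313 bp.

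NPM1 peaks at the member ends were narrower and weaker than at NPM1 ends with H3K4me3, and close to the typical peak of their lists. The infarct peak had a median width of 302 bp (quartiles 224.5 and 411.5, highest 990), against 609 bp at the 9833 NPM1 ends with H3K4me3. The IL-4 peak had a median width of 324 bp (quartiles 224 and 436, highest 1020), against 611 bp. Over all peaks of the lists the median width was 311 bp in the infarct and 326 bp in the IL-4 list. The deposited q was over 0.05 at 33.4% of member ends in the infarct list, against 27.6% of all its peaks, and at 20.1% in the IL-4 list, against 15.9%. The smallest width in the lists, 200 bp, was reached at 60 member ends in the infarct list and at 63 in the IL-4 list. No member had an infarct peak of 1000 bp or more, against 14.3% of the NPM1 ends with H3K4me3, and 1 member, the armadillo-repeat gene Armc8, had such an IL-4 peak, against 15.2%.

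**Figure D1:**
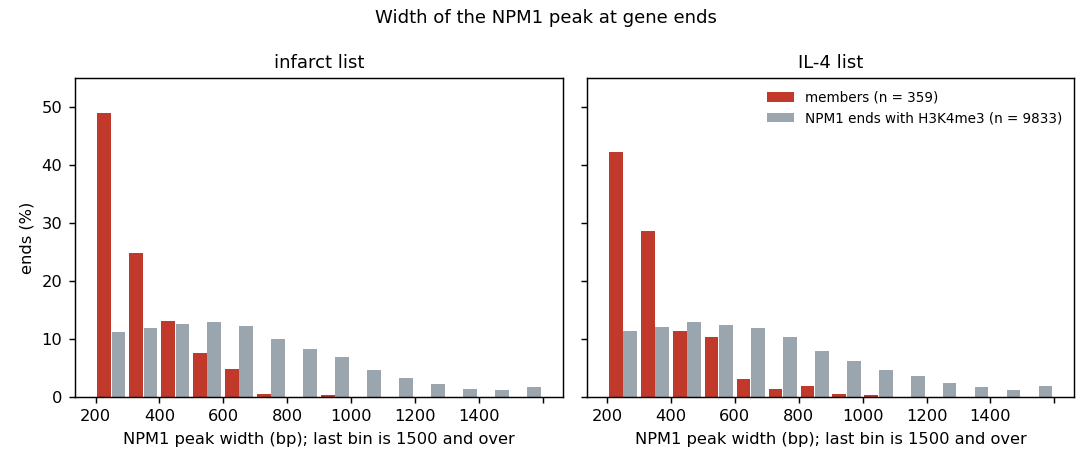
Share of ends (y axis, percent) by width of the NPM1 peak in 100 bp bins (x axis), for the infarct list (left) and the IL-4 list (right), with the 359 member ends in red and the 9833 NPM1 ends with H3K4me3 in grey. Of the member ends, 49.0% in the infarct list and 42.3% in the IL-4 list fall in the bin of 200 to 299 bp.

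The infarct peaks of members had a median fold of 2.85 (1.99 to 5.89), against 4.44 at the NPM1 ends with H3K4me3, and the IL-4 peaks one of 2.76 (1.76 to 9.08), against 4.25. At the summit this was a median of 13 reads in the infarct library (8 to 50) and 16 with IL-4 (10 to 74), against 23 and 27 at NPM1 ends with H3K4me3. Both peaks had a q of 0.05 or less, a −log10 q of at least 1.3, at 202 member ends (56.3%), against 92.8% of the NPM1 ends with H3K4me3. A −log10 q of 5 or more in both lists was reached at 10 member ends (2.79%), against 55.9%. Those 10 ends belong to Osm, Flywch1, Rhoh, Aqp9 and, at both ends of each gene, Prm1, Prm2 and Prm3. All ends of Prm2 and Prm3 share the same infarct and IL-4 peaks, whose summits lie inside Prm2 and outside Prm3. Both ends of Prm1 share another pair.

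Member peaks also lay farther from the end. The infarct summit was a median of 596 bp from the member end and the IL-4 summit 560 bp, against 181 and 177 bp at the NPM1 ends with H3K4me3. At member gene starts 61.9% of infarct summits lay inside the gene, and at member gene ends 45.3%. The infarct and IL-4 peaks overlapped each other at 266 member ends (74.1%), with a median gap of 108 bp between summits, against 93.8% and 68 bp at the NPM1 ends with H3K4me3. At the remaining 93 member ends the strongest peaks of the 2 cell types did not overlap, and their summits could lie far apart, as at Pwwp3a (1452 bp). Counting any infarct and IL-4 peak within 1 kb of the end, 277 member ends had an overlap. The IL-4 peak was the wider one at 189 member ends.

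**Figure D2:**
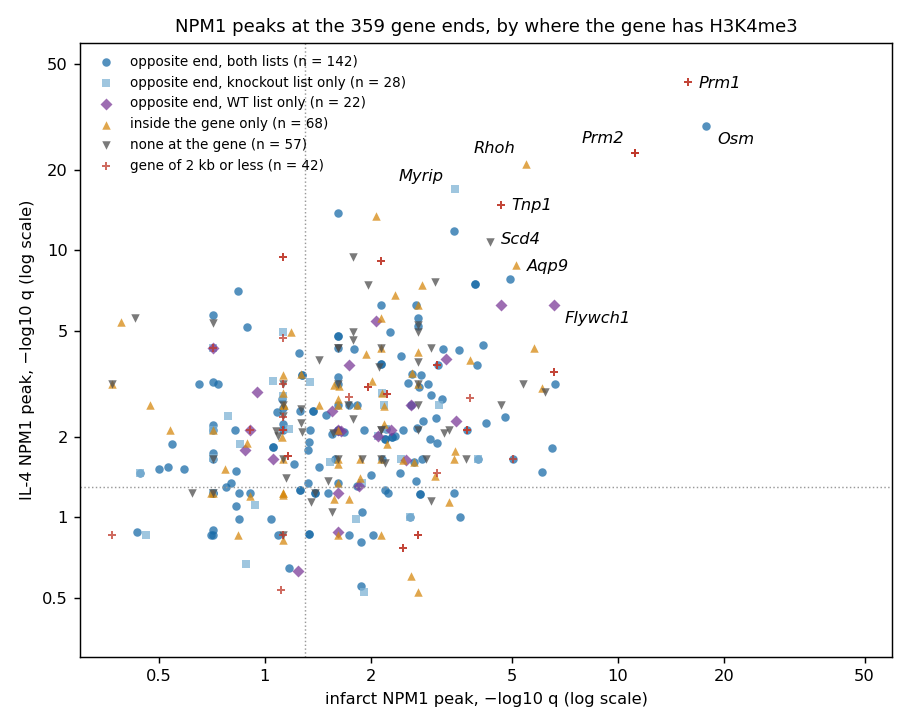
Each of the 359 member ends by the −log10 q of its infarct NPM1 peak (x axis, log scale) and of its IL-4 NPM1 peak (y axis, log scale), with colour and shape for where the gene has H3K4me3 and dotted lines at 1.3. Most ends crowd near the dotted lines, and Prm1, Osm and Prm2 stand highest in both lists. These values were used to choose the members.

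Strand, known for 269 member ends, put 97 at the start of a gene and 172 at its end. The share at a start was 36.1%, against 85.2% of the NPM1 ends with H3K4me3 and 31.7% of the H3K4me3-free ends without both NPM1 peaks. The genes were somewhat shorter, with a median length of 13120 bp over member ends, against 19106 and 16883 bp. Another protein-coding gene had its start or its end within 1 kb of 50 members (13.9%), against 28.9% of NPM1 ends with H3K4me3 and 7.56% of H3K4me3-free ends without both NPM1 peaks. A long noncoding RNA gene had its start or its end within 1 kb of 18 members (5.01%), against 9.41% and 2.80%. A member end lay inside another protein-coding gene in 43 cases (12.0%), against 11.9% and 9.10%.

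The opposite end of the gene carried H3K4me3 in either list at 193 of the 359 member ends, or 53.8%. The 95% exact binomial interval, 48.45% to 59.01%, covers counting error only. The share was 45.5% at the 20718 H3K4me3-free ends without both NPM1 peaks and 46.1% at the NPM1 ends with H3K4me3. For members it was 47.6% in the knockout list and 46.0% in the WT list. The share differed with the role of the end in its gene. The opposite end was marked at 119 of 172 members at a gene end (69.2%) and at 25 of 97 members at a gene start (25.8%). The shares at H3K4me3-free ends without both NPM1 peaks were 60.1% and 14.4%, so members had the higher share in either role. The gaps were smaller where no H3K4me3 lay within 5 kb of the end. There the share was 54.4% of 68 members against 51.4% at gene ends, and 12.3% of 57 members against 8.01% at gene starts. NPM1 ends with H3K4me3 had 88.2% at gene ends and 39.8% at gene starts, above the members in either role. Of the 90 members without a given strand, 49 (54.4%) had an opposite mark.

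**Figure D3:**
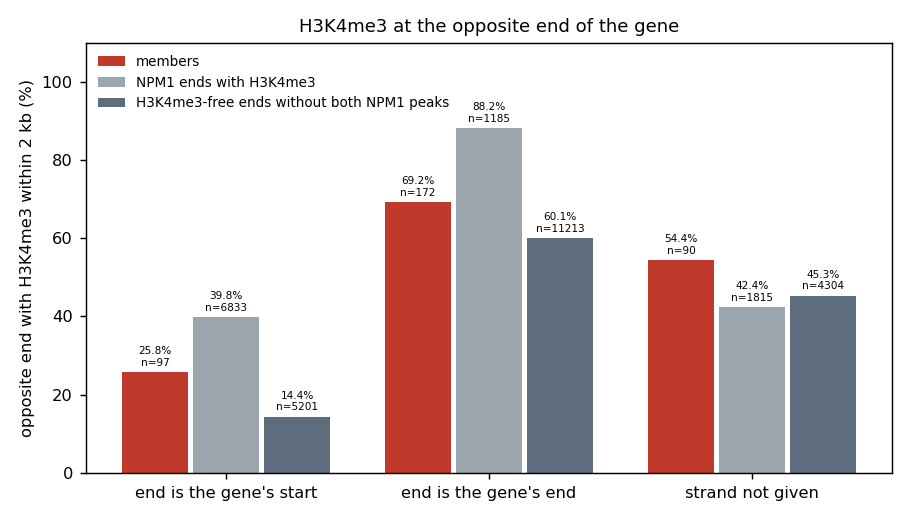
Share of ends whose opposite gene end has H3K4me3 within 2 kb in the knockout or WT list (y axis, percent), by role of the end, for member ends (red), NPM1 ends with H3K4me3 (light grey) and H3K4me3-free ends without both NPM1 peaks (dark grey), with the number of ends over each bar. Members stand at 69.2% where they are gene ends and at 25.8% where they are gene starts, between the other sets in both roles.

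By where their gene had H3K4me3, the 359 members fell into 6 classes. The opposite end was marked in both lists at 142 ends (39.6%), in the knockout list only at 28 (7.80%) and in the WT list only at 22 (6.13%). At 68 ends (18.9%) the mark lay inside the gene only, at 57 (15.9%) nowhere at the gene, and 42 (11.7%) belonged to genes of 2 kb or less, too short for a separate opposite end. Widths hardly separated the classes. Median infarct widths ran from 244.5 bp in the knockout-only class to 321 bp in genes without H3K4me3, and median IL-4 widths from 286 to 343 bp in the same classes.

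Of the 142 ends whose opposite end was marked in both lists, 97 were gene ends, 9 gene starts and 36 had no given strand. Gene ends thus made up 91.5% of those with a strand, against 96.5% of 5882 ends of the same class without both NPM1 peaks, so this share is not particular to members. Osm, the gene of oncostatin M, a cytokine of the interleukin-6 family (chr11:4236785-4241026, strand not given), came first in the order by the lower −log10 q, while Prm1 had the higher IL-4 value. Its infarct NPM1 peak at chr11:4240044-4240797 was 754 bp wide, 5.15-fold enriched, with a −log10 q of 17.8. Its IL-4 peak at chr11:4240137-4240854 was 718 bp wide, 5.69-fold enriched, with a −log10 q of 29.3. Neither the sham nor the untreated list had a peak within 1 kb of that end. H3K4me3 began 2542 bp into the gene in the knockout list, where 1 peak of 2245 bp reached past the opposite end, and 2575 bp into the gene in the WT list, where shorter peaks of 901 and 221 bp lay inside the gene and one of 423 bp past its far end. These member peaks of NPM1 did not overlap H3K4me3. Other NPM1 peaks farther along did. Weak ones lay inside the H3K4me3 peaks of both lists, an IL-4 peak of 200 bp with −log10 q of 2.69 and a sham peak of 343 bp with 2.06. Past the gene, an infarct peak of 657 bp with 28.4 and an IL-4 peak of 601 bp with 26.5 spanned a WT H3K4me3 peak of 200 bp. That infarct value was above the 17.8 of the member peak.

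Kif1a, a neuronal kinesin motor gene, had NPM1 peaks at its gene end with −log10 q of 4.95 after infarction and 7.82 with IL-4, whose summits were 6 bp apart, and H3K4me3 35965 bp away. Dnajc3, an endoplasmic reticulum co-chaperone gene, shared its NPM1 peaks with the facing end of Uggt2, which encodes a glucosyltransferase-like protein of the same compartment. These peaks had −log10 q of 3.95 after infarction and 7.51 with IL-4, and a sham peak of 345 bp with −log10 q of 4.46 overlapped them. Itpr2, an inositol trisphosphate receptor gene, had −log10 q of 3.98 after infarction and 3.72 with IL-4 at its gene end. Further leading ends in this class belong to Tmem171, to Tubg1, the gene of the microtubule nucleator gamma-tubulin, and to Pop1, which encodes a subunit of the RNA-processing enzymes RNase P and RNase MRP. After infarction their −log10 q was 4.15, 3.55 and 3.44, and with IL-4 it was 4.43, 4.22 and 11.8. In sham, Tmem171 had 0.863 and Tubg1 5.50, and Pop1 had no peak. Pip5kl1 was the leading member at a gene start in this class, with −log10 q of 3.20 after infarction and 4.26 with IL-4. The 4 ribosomal protein genes among the members, Rpl3, Rpl19, Rps10 and Rps19, were singled out after their values were seen. All belong to this class, the largest one, with weak peaks, the strongest at a −log10 q of 1.88. Ribosomal protein genes among all genes were not counted, so no share is given.

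H3K4me3 at the opposite end covered more bases in the knockout at 134 of these 142 genes, with a median of 1485.5 bp against 878.5 bp in WT within 2 kb of that end. Counting the 1 short gene with such a mark, it was wider in the knockout at 94.4% of members, against 96.9% of the 7377 H3K4me3-free ends without both NPM1 peaks whose opposite end was marked in both lists. The difference between the H3K4me3 libraries thus ran through marked gene ends in general. Where the opposite end had H3K4me3, it also had both NPM1 peaks at 114 of 192 members (59.4%), against 55.2% of H3K4me3-free ends without both NPM1 peaks. Where it had none, an opposite end with both NPM1 peaks is itself a member by the rule. This was so at 6 of 125 members (4.80%). It was also so at 119 of 7987 H3K4me3-free ends without both NPM1 peaks (1.49%), which face the other members. The rule fixes both shares, so they are not compared. These counts leave out genes of 2 kb or less.

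In the knockout-only class the opposite mark had a median −log10 q of 6.20 (0.767 to 135), with 17 of 28 at 5 or more. The highest value was at Btbd6, where only 96 bp were covered near the opposite end. In the WT-only class the opposite mark had a median of 1.81 (0.522 to 6.47), with 3 of 22 at 5 or more. These values come from different lists, so they do not rank the marks of one class above those of the other. The opposite ends of the 2 classes were covered over a median of 420.5 bp in the knockout and 306.5 bp in WT. Myrip, which encodes a linker between Rab27 vesicles and myosin, led the knockout-only class. At its gene end it had an infarct peak of 256 bp with −log10 q of 3.45, a sham peak of 200 bp with 1.39, an IL-4 peak of 337 bp with 17.0 and an untreated peak of 299 bp with 1.40. It is the only leading end of its class with a peak in all 4 NPM1 lists. Neurl1a, an E3 ubiquitin ligase gene, was the last of the leading members of this class in the same order, with 4.01 after infarction and 1.66 with IL-4 at its gene end. Crhr1, the corticotropin-releasing hormone receptor gene, had 3.12 and 2.62 at its start. Tagln, a smooth muscle actin-binding protein gene, had 2.15 and 2.93, with 200 bp covered at the opposite end in the knockout. Hp, the haptoglobin gene, had 2.21 and 2.15, and its opposite mark covered 653 bp with a −log10 q of 16.2. Camkk1, Btbd6 and Efcc1 complete the leading ends of this class, with −log10 q from 2.09 to 2.43 after infarction and from 1.66 to 2.62 with IL-4.

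Flywch1, a zinc finger gene, led the WT-only class. Its infarct peak over the gene start was 652 bp wide with −log10 q of 6.60, its sham peak 200 bp with 1.05 and its IL-4 peak 561 bp with 6.25, and no untreated peak was called. H3K4me3 lay 2625 bp away outside the gene and about as far inside it in the knockout list. The peak inside had a −log10 q of 102 in the knockout list and 14.8 in the WT list. The far end of Flywch1, marked in WT only, had a −log10 q of 1.94. Grin2b, an NMDA receptor subunit gene, had −log10 q of 4.66 after infarction, 4.36 in sham and 6.25 with IL-4 at an end whose strand was not given. Nanos3, a germ cell RNA-binding protein gene, Vpreb3, a pre-B cell gene, Dnah10, an axonemal dynein gene, and Srrm3 had NPM1 at the gene start, with −log10 q from 1.73 to 3.47 after infarction. Pramel33 had 1.64 at its gene end, and an untreated peak with 3.89. P2rx1, an ATP-gated channel gene, shared its peaks with the neighbouring start of Camkk1, so 1 pair of NPM1 peaks counts in both the WT-only and the knockout-only class.

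Of the 68 members with an inside-only mark 32 were gene starts, 18 gene ends and 18 had no given strand. Starts made up 64% of those with a strand, against 49.7% of 2526 ends of the same class without both NPM1 peaks. Gene ends with a marked start fall into another class by construction. At the 32 starts the nearest H3K4me3 lay at a median of 4895.5 bp (2048 to 28509), and at 16 of them within 5 kb. Rhoh (chr5:65860742-65896700, plus strand) had an infarct peak of 677 bp at chr5:65860395-65861071 over its start, 4.24-fold enriched, with a −log10 q of 5.49. Its IL-4 peak of 484 bp at chr5:65860585-65861068 had a −log10 q of 21.0, and neither sham nor untreated cells had a peak. H3K4me3 began 2595 bp into Rhoh in the knockout and 2774 bp in WT, with further peaks up to 4457 bp, and a second pair of NPM1 peaks stood beyond them, 6.6 to 7.3 kb into the gene. NPM1 and H3K4me3 therefore alternated along the first part of Rhoh without overlap.

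Aqp9, a water and glycerol channel gene, had NPM1 peaks just inside its start of 434 bp after infarction (−log10 q 5.15) and 609 bp with IL-4 (8.78), and H3K4me3 2249 bp away in the knockout and 31489 bp away in WT. H2-Eb1, which encodes a beta chain of MHC class II, had 406 bp (2.79) and 458 bp (7.39) over its start, and H3K4me3 3441 bp away in the knockout and 2553 bp in WT. Lhcgr, the luteinising hormone receptor gene, and Serpinb1c, a serpin gene, had the same −log10 q of 2.72 after infarction, with 6.25 and 4.15 with IL-4. Myo16 was the leading gene end of this class, with 3.81 after infarction and 3.90 with IL-4. Dnajc18 and Sectm1a, without a given strand, had 5.79 and 6.11 after infarction and 4.32 and 3.04 with IL-4. The infarct and IL-4 peaks did not overlap at Myo16 and Sectm1a, where their summits were 1099 and 1050 bp apart.

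**Figure D4:**
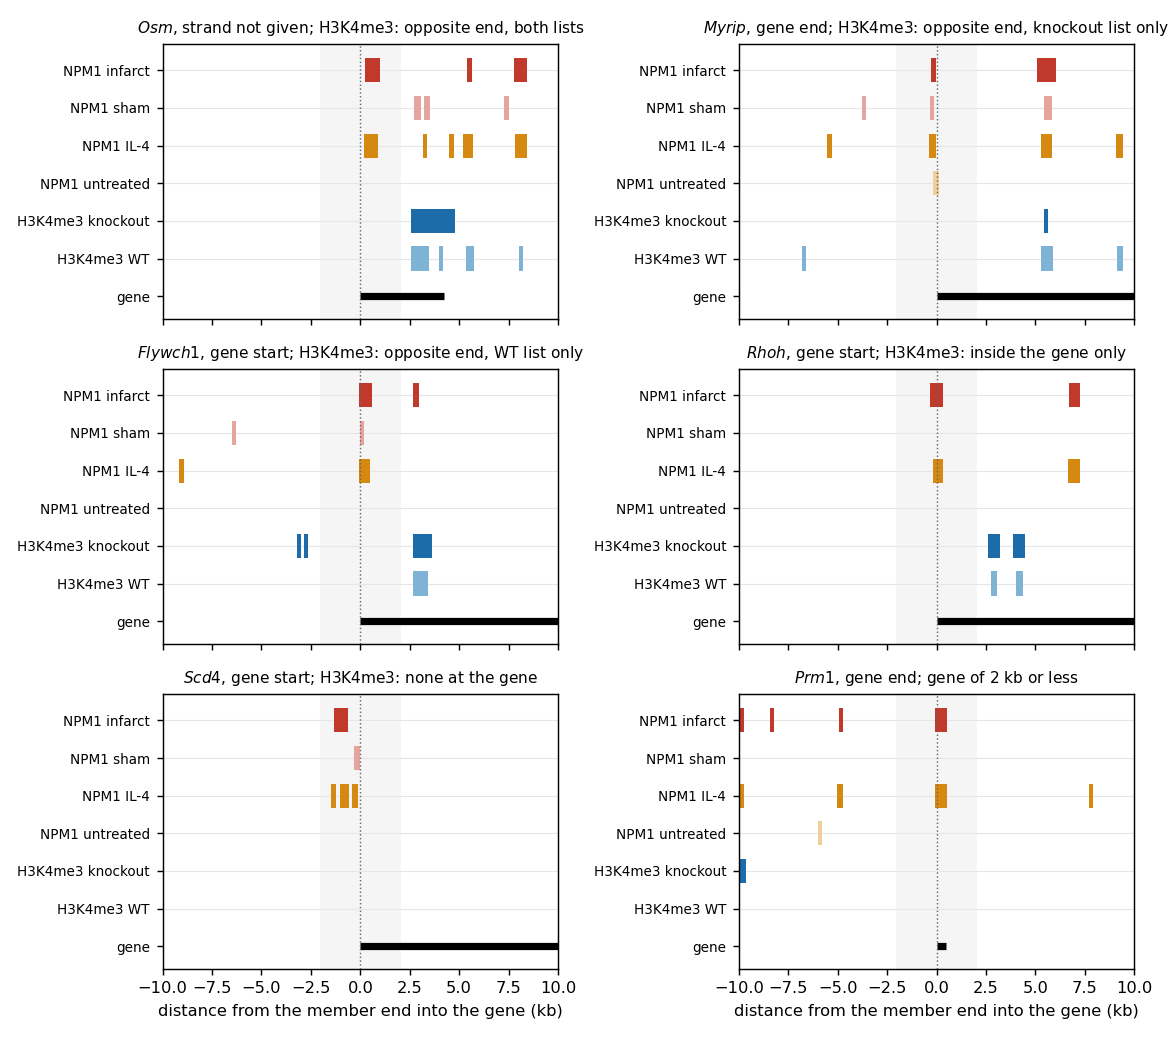
Peaks of the 6 lists (boxes, to scale) within 10 kb of the leading member end of each class, by distance from the member end, positive into the gene (x axis, kb); the black bar is the gene, which runs on past the panel for genes longer than 10 kb, and shading marks 2 kb on either side. The member NPM1 peaks reach within 1 kb of the dotted line in every panel. They cross it at Flywch1, Rhoh and Prm1 and stop short of it at Osm and Scd4. At Myrip only the untreated peak crosses it. H3K4me3 starts beyond the shading at Osm, Myrip, Flywch1 and Rhoh and is absent around Scd4. At Prm1 it is seen only near the panel's edge in the knockout list.

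Genes with H3K4me3 at neither end nor inside held 57 member ends, 24 at a start, 18 at an end and 15 without a given strand. Scd4, a stearoyl-CoA desaturase gene (chr19:44333326-44346743, plus strand), led them, with NPM1 upstream of its start. Its infarct peak was 670 bp with −log10 q of 4.34, a sham peak of 295 bp with 0.863 lay beside it, and its IL-4 peak was 463 bp with 10.7. The nearest H3K4me3 was 17917 bp away in the knockout and 18262 bp in WT. Klrb1c, an NK cell receptor gene, was a member at both ends, with −log10 q of 3.03 after infarction and 7.64 with IL-4 at its start, and 1.26 and 2.26 at its end. Amigo3 had 6.23 after infarction, 0.889 in sham and 2.95 with IL-4. Alkal2, a ligand gene for the receptor tyrosine kinases ALK and LTK, had 5.38 after infarction and 3.16 with IL-4. Akp3, an intestinal alkaline phosphatase gene, and Smcp, a sperm mitochondrial protein gene, had 2.95 and 2.72 after infarction and 4.32 and 4.94 with IL-4. Mup15, a major urinary protein gene, and Pramel49, from a family active in germ cells and early embryos, belong to families of similar genes, whose reads may not be told apart.

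Genes of 2 kb or less held 42 member ends of 27 genes, and 1 peak often counts at both their ends. The protamine genes Prm1 and Prm2 and the transition protein gene Tnp1, which package sperm DNA, led here. Prm1 had −log10 q of 15.8 after infarction and 42.6 with IL-4, and no sham or untreated peak. The alpha-globin genes Hba-a1 and Hba-a2, near-identical copies, had −log10 q of 3.06 and 1.95 after infarction, both had 0.863 in sham, and they had 3.72 and 3.07 with IL-4. Ear10 and Ear2 encode eosinophil-associated ribonucleases, again of a family of similar genes. Ear10 was the only short gene with H3K4me3 at the opposite end. It had 3.81 after infarction and 2.80 with IL-4, while Ear2 had 1.13 and 4.71. Krtap21-1, a hair keratin-associated protein gene, had 2.14 after infarction, 2.80 in sham and 9.13 with IL-4. Tmem249 and Tmem89 complete the leading ends, with 2.22 and 3.74 after infarction and 2.91 and 2.12 with IL-4.

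Sham and untreated NPM1 peaks were not used to choose the members. A sham peak lay within 1 kb of 89 member ends (24.8%), against 8.69% of the NPM1 ends with H3K4me3, 4.17% of the H3K4me3-free ends without both NPM1 peaks and 6.23% of all ends. An untreated peak lay at 33 member ends (9.19%), against 7.70%, 1.98% and 3.53% of the same sets. The exact 95% intervals for the members, 20.41% to 29.59% and 6.412% to 12.67%, cover counting error only, and ends that share a peak are not independent. Members thus had NPM1 in the shallow sham library more often than gene ends with H3K4me3 did, although their infarct peaks were weaker. For the untreated library the member share and that of NPM1 ends with H3K4me3 were close.

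Role within the gene bears on this contrast. At gene starts a sham peak was found at 27.8% of members, against 6.23% of NPM1 ends with H3K4me3 and 4.58% of H3K4me3-free ends without both NPM1 peaks. At gene ends it was found at 24.4% of members, against 20.8% and 4.16%. Among ends with a given strand, the gap to the NPM1 ends with H3K4me3 was therefore mostly one between gene starts. Without a given strand, a sham peak was found at 22.2% of 90 members, against 9.97% of 1815 NPM1 ends with H3K4me3. For untreated cells the shares were 12.4% of members, against 7.27% and 2.35%, at gene starts and 6.98% of members, against 10.5% and 1.85%, at gene ends, where members had the lower share of the NPM1 sets.

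**Figure D5:**
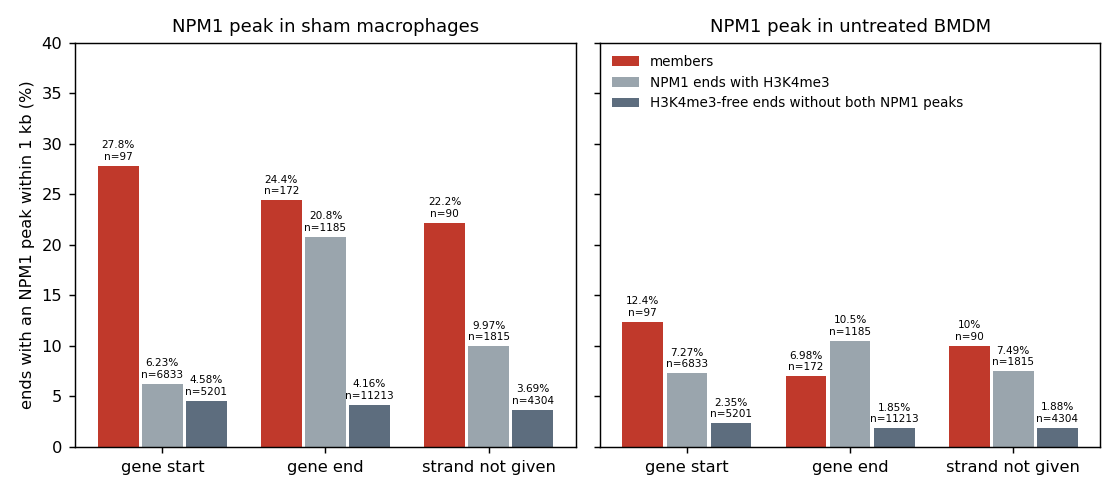
Share of ends with an NPM1 peak within 1 kb (y axis, percent) in the sham library (left) and in untreated BMDM (right), by role of the end, for member ends (red), NPM1 ends with H3K4me3 (light grey) and H3K4me3-free ends without both NPM1 peaks (dark grey), with the number of ends over each bar. In the sham library members stand at 27.8% for gene starts and 24.4% for gene ends, and only the gene ends among the NPM1 ends with H3K4me3 come near, at 20.8%.

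The sham peak overlapped the infarct peak at 66 of the 89 members that had both (74.2%), and the untreated peak the IL-4 peak at 23 of 33 (69.7%). Sham peaks at members had a median width of 244 bp, a median −log10 q of 1.92 and a median of 8 reads at the summit, and untreated ones 297 bp, 1.85 and 10 reads. By class, a sham peak was found at 18.3% of ends with an opposite mark in both lists, 21.4% in the knockout-only class, 36.4% in the WT-only class, 22.1% with a mark inside only, 35.1% at genes without H3K4me3 and 33.3% in short genes. Genes without H3K4me3 had an untreated peak at 17.5% of ends, the highest share of the 6 classes. Of the remaining members, 72 had a sham peak without an untreated one, 16 an untreated peak without a sham one and 254 neither.

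A peak in all 4 NPM1 lists was found at 17 member ends. Of these, 8 belong to predicted or chemosensory receptor genes and 2 to the Pramel family, whose copies are alike. Adgb, the androglobin gene, had at its gene end −log10 q of 2.14 after infarction, 6.32 in sham, 5.58 with IL-4 and 19.6 in untreated cells. Armc8, a subunit gene of a ubiquitin ligase complex, had 1.78, 1.92, 4.26 and 10.7 in the same order. Ctnna1, the alpha-catenin gene, had 1.61, 5.56, 3.36 and 3.44, and Pramel43 2.11, 3.19, 3.64 and 2.03. At these ends the infarct value was thus the lowest of the 4 for Adgb, Armc8 and Ctnna1, although −log10 q from lists of different depth cannot be set on 1 scale.

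Genes of the pathways tied to macrophages were counted beside the 1.65% of all genes that were members. Of 24 reparative macrophage genes Cd163 and Osm were members (8.33%), and of 26 IL-4 response genes Ear2 (3.85%). Of 28 lysosome and autophagy genes Wipi2, an autophagosome protein gene, was a member (3.57%). No member came from 32 mTORC1 and TSC genes, 25 macrophage identity genes, 27 inflammatory, 22 glycolysis, 18 interferon response or 29 chemokine genes, although 29, 24, 17, 16, 7 and 12 of these had both NPM1 peaks at an end. These counts are too small to place the lists above or below the 1.65% of all genes. Of other cells' genes, Mmp8, a neutrophil collagenase gene, was 1 of 12 neutrophil genes and Klrb1c 1 of 14 T and NK cell genes, with 0 of 20 cardiomyocyte, 14 fibroblast, 13 endothelial and 10 B cell genes. Of 20 genes silent outside their tissue 3 were members, Prm1, Prm2 and Tnp1. Of 1104 olfactory receptor genes Olfr559 and Olfr8 were members (0.181%), and of 388 zinc finger Zfp genes Zfp229 and Zfp979 (0.515%).

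Cd163, the haemoglobin scavenger receptor gene, had weak infarct and IL-4 peaks before its start, with −log10 q of 1.13 and 1.23, and a sham peak of 318 bp with 5.37. The sham peak overlapped the IL-4 peak and not the infarct peak. Mmp8 had −log10 q of 0.715 after infarction and 2.12 with IL-4 at its gene end, and its start had H3K4me3 in the knockout list only, over 1941 bp with −log10 q of 27.2. Wipi2 had 2.68 after infarction and 1.37 with IL-4 at its gene end, with the opposite end covered over 2007 bp in the knockout and 1195 bp in WT.

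Among the members were 19 genes of immune cells, picked from the members after their values were seen, with 21 ends. Immune cell genes among all genes were not counted, so no share can be set beside the 1.65% of all genes. Besides those described they include Cd74, the invariant chain gene of MHC class II, Cd8b1, a CD8 chain gene, H2-Eb2, Il2rb, an interleukin-2 receptor chain gene, Il4, Lsp1, Ltbr, the lymphotoxin beta receptor gene, Runx1, a blood cell transcription factor gene, S1pr4, Tnfrsf13b, Trem1 and Trem3. Of the 21 ends, 9 were gene starts, 10 had a −log10 q of 1.3 or more in both lists, 2 had a sham peak, at Vpreb3 and Cd163, and 0 an untreated one. Runx1 had NPM1 within 1 kb of its gene end, with −log10 q of 2.14 after infarction and 1.66 with IL-4 in peaks of 200 bp. These peaks did not overlap, and their summits were 953 bp apart. Its opposite end had H3K4me3 over 1874 bp in the knockout and 819 bp in WT. Il4 itself had NPM1 inside its start, with 1.56 after infarction and 2.06 with IL-4, and no H3K4me3 at the gene.

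Gene names were grouped by stem, and only stems with at least 3 member genes are given, so high shares are built in. Beside the 1.65% of all genes, 26 of 967 predicted Gm genes were members (2.69%), 9 of 231 Tmem genes (3.90%) and 6 of 45 Pramel genes (13.3%). So were 4 of 56 Krtap genes (7.14%), 3 of 24 Mup genes (12.5%) and 3 of 3 Prm genes, of which Prm2 and Prm3 share their NPM1 peaks. The share was 1.38% of 362 Slc, 2.24% of 134 Ccdc, 4.08% of 98 Cd, 4.41% of 68 Trim and 4.55% of 66 Gpr genes. The Gm, Pramel, Krtap, Mup and Prm genes hold similar copies or lie in clusters, and reads of copies may not be told apart. Ends of predicted and receptor genes made up 10.6% of members, against 4.46% of NPM1 ends with H3K4me3 and 21.4% of H3K4me3-free ends without both NPM1 peaks. By chromosome the share of ends that were members ran from 0.254% on chromosome 3 to 1.58% on chromosome 5, with 40 ends, and 1.55% on chromosome 16, where the protamine genes lie. The widest infarct peaks were those of Adamts16, a metalloprotease gene, at 990 bp with −log10 q of 1.61, Osm and B3gnt6, a glycosyltransferase gene, at 700 bp with 3.74. Among the narrowest, at 200 bp, were Adam11, Agt, the angiotensinogen gene, and Alg3, an N-glycosylation enzyme gene, with −log10 q of 1.17, 1.24 and 2.57.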

How the data were processed

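The member ends and gene lists were chosen with earlier results of these data known. Each deposited file is a narrowPeak list of 1 library. Per the labels' protocols, a commercial CUT&Tag kit was used. The submitters' processing notes name build mm10 and the tools deepTools, MACS2 2.2.7.1, Bowtie2 and bcl2fastq 2.17. No source used here states their settings or a control library. The authors deposited for each peak a score, which is 10 times the −log10 p, a fold enrichment over local background, a −log10 p and a −log10 q. The deposited q was over 0.05 in 5.01% to 27.8% of a list.

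Gene ends are the outermost positions in the RefSeq table for GRCm38.p6, on chromosomes 1 to 19, so starts inside a gene are missed. Strand came from the RefSeq promoter table for 16457 of 20665 genes. A peak counted where any base lay in the window, and the peak with the highest −log10 q stands for an end. Reads at a summit and the background were recovered from fold and −log10 p where a whole number lay within 0.001. The code was tested on simulated lists. Named genes are the leading ends of each class by the lower of both −log10 q, leaving out predicted and receptor genes and shared peaks, ends in all 4 NPM1 lists, members of the gene lists, ends at the limits of the rule, and the widest and narrowest. Python 3.11.15, numpy 2.4.6, pandas 2.3.3, scipy 1.17.1 and matplotlib 3.10.9 were used.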

Additional observations from a re-analysis of the deposited data

How the results depend on the processing

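Of 60 values recomputed under 10 alternatives, 46 stayed within the 95% interval of the member value, or within 1.5 times the count. With both NPM1 peaks at −log10 q of 5 or more, 10 ends were left, 20.0% of them with an opposite mark, 10% with a sham and 30.0% with an untreated peak, 66.7% at gene starts, and a median infarct width of 497.5 bp. That untreated share rests on 1 peak of 200 bp with −log10 q of 0.850, counted at 1 end of Prm2 and both ends of Prm3. All ends of Prm2 and Prm3 share the same infarct and IL-4 peaks, so the shares over these 10 ends count those peaks more than once. With q of 0.05 or less there were 202 ends and a median of 322 bp. With no H3K4me3 within 5 kb there were 178 ends, 13.5% with an untreated peak and 45.6% at gene starts. Of these, 41.0% had an opposite mark and 28.7% a sham peak, against 36.4% and 3.70% of H3K4me3-free ends without both NPM1 peaks. Without predicted and receptor genes an untreated peak was found at 6.23%. Without genes of 2 kb or less, an alternative chosen after seeing the data, as was 1 end for each shared infarct peak, the opposite share was 60.6%, against 54.0% of H3K4me3-free ends without both NPM1 peaks. The shares of those other ends were likewise added after seeing the data. No paired analysis was possible because the results come from no test and each group has 1 library. Sham and untreated depths limit what their absent peaks can show.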
